A study of Homo sapiens with 6 samples.

Results

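The genes described here are 41 that repair broken or crosslinked DNA by homologous recombination and the Fanconi pathway, or that signal damage to the cell cycle. They were chosen by name, and all 41 were among the 14456 genes of the deposited table. RNA came from C4-2 cells, a castration-resistant prostate cancer line, grown in medium with 10% fetal bovine serum. Of 6 polyA-selected libraries, 3 were from cells exposed to IPI-9119, a fatty acid synthase inhibitor, at 100 nM over 6 days, and 3 from cells given 0.1% DMSO, the vehicle. Both groups are of 1 cell line, and the labels do not say whether replicates were separate cultures, so the p-values here cover only how much these 6 libraries vary, which may be technical variation.

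In homologous recombination the ends of a double-strand break are trimmed to single strands, which BRCA1, PALB2 and BRCA2 prepare for copying from the sister chromatid. The Fanconi core complex attaches ubiquitin to FANCD2 and FANCI at crosslinks, and the kinases ATM and ATR, with their targets CHEK2 and CHEK1, hold the cell cycle meanwhile. Many of these genes are transcribed mainly in S and G2 phase, and inherited or acquired defects in several of them, BRCA2, ATM and CDK12 among them, are known from advanced prostate cancer.

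Most of these genes were higher with IPI-9119. Of the 41, 27 rose, 5 fell and 9 did not pass the test (limma on log2(value + 1), Benjamini-Hochberg adjusted p under 0.05 over 14437 genes). Among all genes tested, 31.3% were called higher and 31.4% lower, 62.8% in all, against 65.9% and 12.2% of the members. The median log2 fold change was 0.68 over the members and 0.00167 over all genes tested. At least a 2-fold rise was found for 18 members and at least a 2-fold fall for 3, beside 7.92% and 9.27% of all genes. In 28 members every IPI-9119 library lay above every DMSO library and in 6 every one lay below, where 34.0% and 33.9% of all genes did so. The 5 that fell were RAD50, MRE11, MDC1, TP53BP1 and CDK12. In bulk libraries more cells that express a gene and more of its RNA per cell cannot be told apart.

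**Figure D1:**
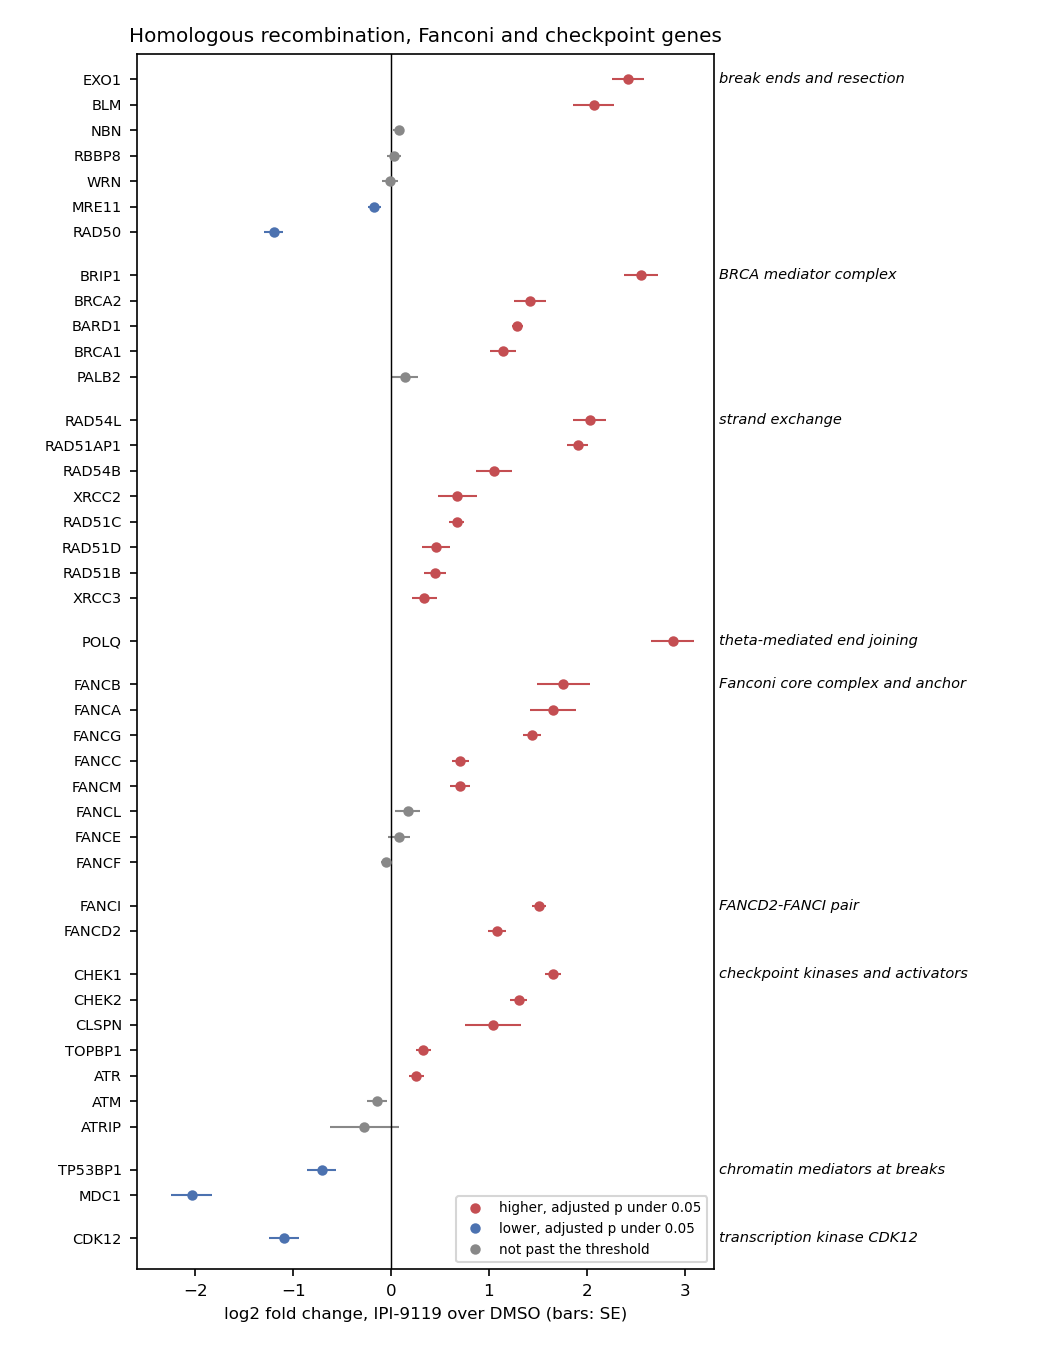
Log2 fold change of each of the 41 genes, IPI-9119 over DMSO, on the log2(value + 1) scale, grouped by step of the pathway. Points are limma estimates from 3 libraries a group and bars are standard errors. Red points were called higher, blue points lower and grey points did not pass the threshold. The genes of strand exchange all lie right of 0, while both chromatin mediators and CDK12 lie left of it.

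Values below are normalised counts (each library’s gene counts over its own size factor, as the authors deposited them), and are given in the order of replicates 1, 2 and 3. Reads assigned to the genes of the table, worked back from the values, came to 19090749 to 20422882 per library with IPI-9119 and 21952620 to 23448035 with DMSO. A member had between 10 and 2101 reads in a library, and 11 members had fewer than 50 in at least 1 library, so their fold changes are among the less precise. Markers of luminal prostate epithelium were abundant in all libraries, with sums over 9 genes of 148189 to 153192 with IPI-9119 and 254776 to 265298 with DMSO; 8 fell and 1 rose. Of 4 basal, 7 fibroblast and smooth muscle, and 8 leukocyte and endothelial markers, 1, 5 and 2 were tested. Their summed values were 7.38 to 19.8, 141 to 211 and 47.4 to 75.3 with IPI-9119. With DMSO they were 6.26 to 13.8, 166 to 186 and 64.2 to 64.4. Of these markers ACTA2 rose and TAGLN fell, and the others did not pass the test. After a correction for exonic length and GC content the basal marker ITGB4 (1.26), the fibroblast marker COL1A1 (1.49) and the endothelial marker VWF (0.89) were also called higher (limma, adjusted p 0.0185, 4.2e-04 and 0.00115). The part of these markers in the members’ changes was not tested.

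Since so many members moved together, their promoters were searched for words bound by cell cycle regulators. Windows of 250 bases before to 50 after the start were taken from RefSeq (GRCh38.p14) for 37 of the 41 genes, the first window listed where a gene has several. An E2F word, any of TTTCCCGC, TTTCGCGC, TTTGGCGC and TTTGCCGC on either strand, was in 7 of the 37 windows. All 7 belonged to members called higher, of which 25 had a window, and none to the 12 other windows. EXO1 and FANCC each have a further listed window, which held no such word. The shares over other genes given next are not split by call. The difference between members called higher and the others was not tested. Of 10669 windows of tested genes 5.42% held such a word, and of all 35116 RefSeq windows 3.31%. The 30 bases around each word are shown so that each match can be read in its context. Each is written 5′ to 3′ on the gene’s strand, with the word in capitals.
EXO1 (word on the gene’s strand, chr1:241848197-241848226): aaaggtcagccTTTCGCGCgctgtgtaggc
XRCC2 (word on the opposite strand, chr7:152676102-152676131): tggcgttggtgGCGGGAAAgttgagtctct
FANCA (word on the opposite strand, chr16:89816801-89816830): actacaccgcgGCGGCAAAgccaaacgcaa
FANCC (word on the opposite strand, chr9:95317863-95317892): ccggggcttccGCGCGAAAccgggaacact
FANCC (word on the gene’s strand, chr9:95317737-95317766): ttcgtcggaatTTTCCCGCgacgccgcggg
FANCD2 (word on the opposite strand, chr3:10026424-10026453): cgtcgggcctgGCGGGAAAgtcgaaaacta
TOPBP1 (word on the opposite strand, chr3:133661930-133661959): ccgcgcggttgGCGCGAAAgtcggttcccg
CLSPN (word on the opposite strand, chr1:35769965-35769994): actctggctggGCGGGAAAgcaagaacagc

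In EXO1, FANCD2, TOPBP1, CLSPN and XRCC2 the word began at base 5, -2, -7, -5 and 22, counted from the RefSeq start, and in FANCA at -172. FANCC held 2, at -172 and -46. A CCAAT box (CCAAT, either strand) was in 10 of 25 windows of members called higher, 3 of 5 called lower and 4 of 7 not past the threshold, and in 37.1% of windows of tested genes. A CHR word (TTTGAA or TTCGAA, either strand), bound by regulators of mitotic genes, was in 3, 1 and 1 of those windows and in 10.8% of windows of tested genes. The GC box (GGGCGG) was in 21, 4 and 4 of them and in 70.5%. A match describes letters and not a bound site.

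The windows of the 3 genes that rose most and of the gene that fell most are given whole, with E2F, CHR and CCAAT words in capitals. They lie at chr3:121545939-121546238 (minus strand), chr17:61863479-61863778 (minus), chr1:241847954-241848253 (plus) and chr6:30717232-30717531 (minus).
POLQ: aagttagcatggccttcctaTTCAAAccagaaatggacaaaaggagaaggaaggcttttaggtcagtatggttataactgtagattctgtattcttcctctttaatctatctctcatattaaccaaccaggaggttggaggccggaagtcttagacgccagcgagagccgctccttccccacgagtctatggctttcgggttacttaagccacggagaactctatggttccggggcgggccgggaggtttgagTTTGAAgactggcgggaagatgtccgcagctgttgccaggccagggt
BRIP1: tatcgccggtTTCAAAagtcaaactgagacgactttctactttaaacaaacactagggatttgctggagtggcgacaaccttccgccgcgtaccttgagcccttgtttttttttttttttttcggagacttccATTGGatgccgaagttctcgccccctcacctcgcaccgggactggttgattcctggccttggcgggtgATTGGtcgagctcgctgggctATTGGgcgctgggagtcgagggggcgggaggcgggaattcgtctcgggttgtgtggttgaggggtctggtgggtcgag
EXO1: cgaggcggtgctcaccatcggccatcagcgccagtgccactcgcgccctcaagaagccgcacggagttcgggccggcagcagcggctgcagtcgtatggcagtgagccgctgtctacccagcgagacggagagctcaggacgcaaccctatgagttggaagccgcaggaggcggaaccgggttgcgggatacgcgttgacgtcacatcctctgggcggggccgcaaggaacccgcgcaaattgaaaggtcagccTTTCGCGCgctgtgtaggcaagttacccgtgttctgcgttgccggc
MDC1: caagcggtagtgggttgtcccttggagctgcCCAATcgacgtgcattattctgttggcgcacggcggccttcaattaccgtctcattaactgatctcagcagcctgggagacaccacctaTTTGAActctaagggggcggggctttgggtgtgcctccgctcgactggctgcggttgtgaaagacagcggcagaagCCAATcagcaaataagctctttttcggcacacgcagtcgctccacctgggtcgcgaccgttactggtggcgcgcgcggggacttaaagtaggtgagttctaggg
Only exact words were searched, so near matches in these windows were not counted. POLQ, which rose most, held CHR words at base 4 and -230 from its start, with no exact E2F or CCAAT word in this window. BRIP1 held 3 CCAAT boxes, at -117, -49 and -28, and a CHR word at -240. EXO1 held the E2F word alone. MDC1, which fell most, held 2 CCAAT boxes, at -219 and -54, and a CHR word at -130.

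Genes that trim broken ends went in both directions. EXO1, a nuclease, and BLM, a helicase, carry out long-range resection and rose, while RAD50 and MRE11, which form the end-binding complex with NBN, fell. EXO1 (ENSG00000174371, chr1:241847967-241895148, plus strand, GRCh38, GENCODE 29) had 225, 230.1 and 266 normalised counts with IPI-9119, against 48.3, 49.1 and 35.8 with DMSO. The groups were far apart, 5.35-fold (log2 fold change 2.42, SE 0.162, adjusted p = 1.6e-08). BLM (ENSG00000197299, chr15:90717327-90816165, plus strand) had 89.6, 104 and 87.98 with IPI-9119 and 23.2, 17.9 and 23.9 with DMSO, again without overlap (log2 fold change 2.07, SE 0.209, adjusted p = 1.0e-06). Its DMSO values rest on 19 to 26 reads per library.

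RAD50, the ATPase that tethers broken ends (ENSG00000113522, chr5:132556019-132646344, plus strand), had 503, 601 and 659 normalised counts with IPI-9119 and 1284, 1479 and 1273 with DMSO. Every IPI-9119 library lay far below every DMSO library, a 2.296-fold fall (log2 fold change -1.199, SE 0.0944, adjusted p = 1.1e-07). An overlapping gene on the same strand, AC116366.3, shares 79.7% of its exonic bases, so reads assigned to RAD50 depend on how the authors’ counting treated shared exons. MRE11, the nuclease of the complex (ENSG00000020922, chr11:94415578-94493908, minus strand), had 654, 663 and 675 with IPI-9119 and 708, 783 and 752 with DMSO, a small difference without overlap (log2 fold change -0.17, SE 0.06898, adjusted p = 0.0446). That call was lost under 8 of 19 alternatives, among them leaving out any library but DMSO replicate 1 (adjusted p 0.0665 to 0.166) and DESeq2 (0.0815), and its log2 fold change was -0.28 once exonic length and GC content were corrected for.

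NBN, the remaining subunit, which recruits ATM, did not pass: its libraries held 1868, 2006 and 1959 normalised counts with IPI-9119 and 1864, 1858 and 1805 with DMSO (log2 fold change 0.077, SE 0.05195). RBBP8, whose product CtIP starts resection with the complex, had 683 to 735 with IPI-9119 and 674 to 727 with DMSO, overlapping ranges (0.030, SE 0.0692). The helicase gene WRN also overlapped, at 571 to 675 with IPI-9119 and 593 to 658 with DMSO (-0.0071, SE 0.0808). After the length and GC correction RBBP8 (-0.19, adjusted p 0.0188) and WRN (-0.21, 0.0231) passed as lower, in limma as above.

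In the BRCA group 4 of 5 genes rose at least 2-fold, and PALB2, the bridge between BRCA1 and BRCA2, did not pass. BRIP1, a helicase that binds BRCA1 (ENSG00000136492, chr17:61681266-61863521, minus strand), had 163, 216 and 210.1 normalised counts with IPI-9119, against 34.9, 31.1 and 31.2 with DMSO. It was 5.87-fold higher, with no overlap (log2 fold change 2.55, SE 0.169, adjusted p = 1.4e-08). BRCA2, which acts on the trimmed single strands (ENSG00000139618, chr13:32315474-32400266, plus strand), had 186, 273 and 284 with IPI-9119 and 81.3, 91.5 and 98.3 with DMSO. IPI-9119 replicate 1 was the lowest of its group and still above every DMSO library (log2 fold change 1.42, SE 0.163, adjusted p = 3.7e-06). BARD1, the ubiquitin ligase partner of BRCA1 (ENSG00000138376, chr2:214725646-214809711, minus strand), had 2215, 2045 and 2216 with IPI-9119 and 884, 871 and 886 with DMSO (log2 fold change 1.29, SE 0.0566, adjusted p = 2.2e-10), the largest absolute gain in counts among the members.

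BRCA1 itself (ENSG00000012048, chr17:43044295-43170245, minus strand) had 292, 369.8 and 398 normalised counts with IPI-9119 and 135, 174 and 168 with DMSO, a 2.21-fold rise (1.14, SE 0.136). In both groups replicate 1 was the lowest library. PALB2 had 153, 179 and 194 with IPI-9119 and 171, 163 and 141 with DMSO, and these overlapped (log2 fold change 0.14, SE 0.132, adjusted p = 0.361 by limma).

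All 8 genes of strand exchange rose, and in all 8 the IPI-9119 libraries lay above the DMSO libraries. RAD54L, a motor protein that acts in strand pairing (ENSG00000085999, chr1:46247688-46278473, plus strand), had 143, 159 and 181 normalised counts with IPI-9119 and 43.8, 33.97 and 38.6 with DMSO (log2 fold change 2.03, SE 0.171, adjusted p = 1.6e-07). RAD51AP1, which stimulates strand pairing (ENSG00000111247, chr12:4538798-4560048, plus strand), had 477, 469 and 444 with IPI-9119, against DMSO values of 133, 112 and 124 (log2 fold change 1.91, SE 0.105, adjusted p = 2.2e-09). RAD54B, a relative of RAD54L (ENSG00000197275, chr8:94371960-94475109, minus strand), had 103, 116 and 122 with IPI-9119 and 46.5, 49.1 and 69.8 with DMSO (log2 fold change 1.05, SE 0.185, adjusted p = 2.0e-04). RAD54B shares 59.1% of its exonic bases with FSBP on the same strand, and RAD54L 25.1% with LRRC41 on the opposite strand.

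RAD51B, RAD51C, RAD51D, XRCC2 and XRCC3, which work in complexes with each other, rose by 0.34 to 0.68 on the log2 scale. RAD51C had 1057, 885 and 948 normalised counts with IPI-9119 and 639.97, 575 and 597 with DMSO (log2 fold change 0.67, SE 0.0787). XRCC2 had 74.9, 97.1 and 71.5 with IPI-9119, against DMSO values of 57.2, 53.8 and 40.4 (0.68, SE 0.2001), and its call was lost when IPI-9119 replicate 2 was left out (limma, adjusted p 0.0529) and under that correction (0.44, 0.0617). RAD51B ran from 197 to 219 with IPI-9119 and from 146 to 159 with DMSO (0.45). RAD51D had 179.97 to 211 with IPI-9119, against DMSO values of 114 to 163 (0.46), a value that was 0.31 and not past the threshold without DMSO replicate 1 (limma, adjusted p 0.0717) and 0.72 after the correction. XRCC3 had 144 to 173 with IPI-9119 and 121 to 132 with DMSO (0.34, adjusted p = 0.0341 by limma). The XRCC3 call was lost in DESeq2 and without any library but IPI-9119 replicate 3 (adjusted p 0.056 to 0.113), and the value was 1.19 after the correction. XRCC3 shares 76.7% of its exonic bases with KLC1 on the opposite strand, and whether the counting used strand is not given in the sources used here.

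POLQ, the polymerase of an error-prone end joining route that competes with recombination (ENSG00000051341, chr3:121431427-121546641, minus strand), rose most of the 41. Its libraries held 195, 241 and 276 normalised counts with IPI-9119 and 22.3, 31.1 and 43.2 with DMSO, 7.35-fold (log2 fold change 2.88, SE 0.2199, adjusted p = 6.3e-08). The DMSO values rest on 25 to 47 reads per library and the IPI-9119 values on 185 to 251, and the groups did not approach each other.

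**Figure D2:**
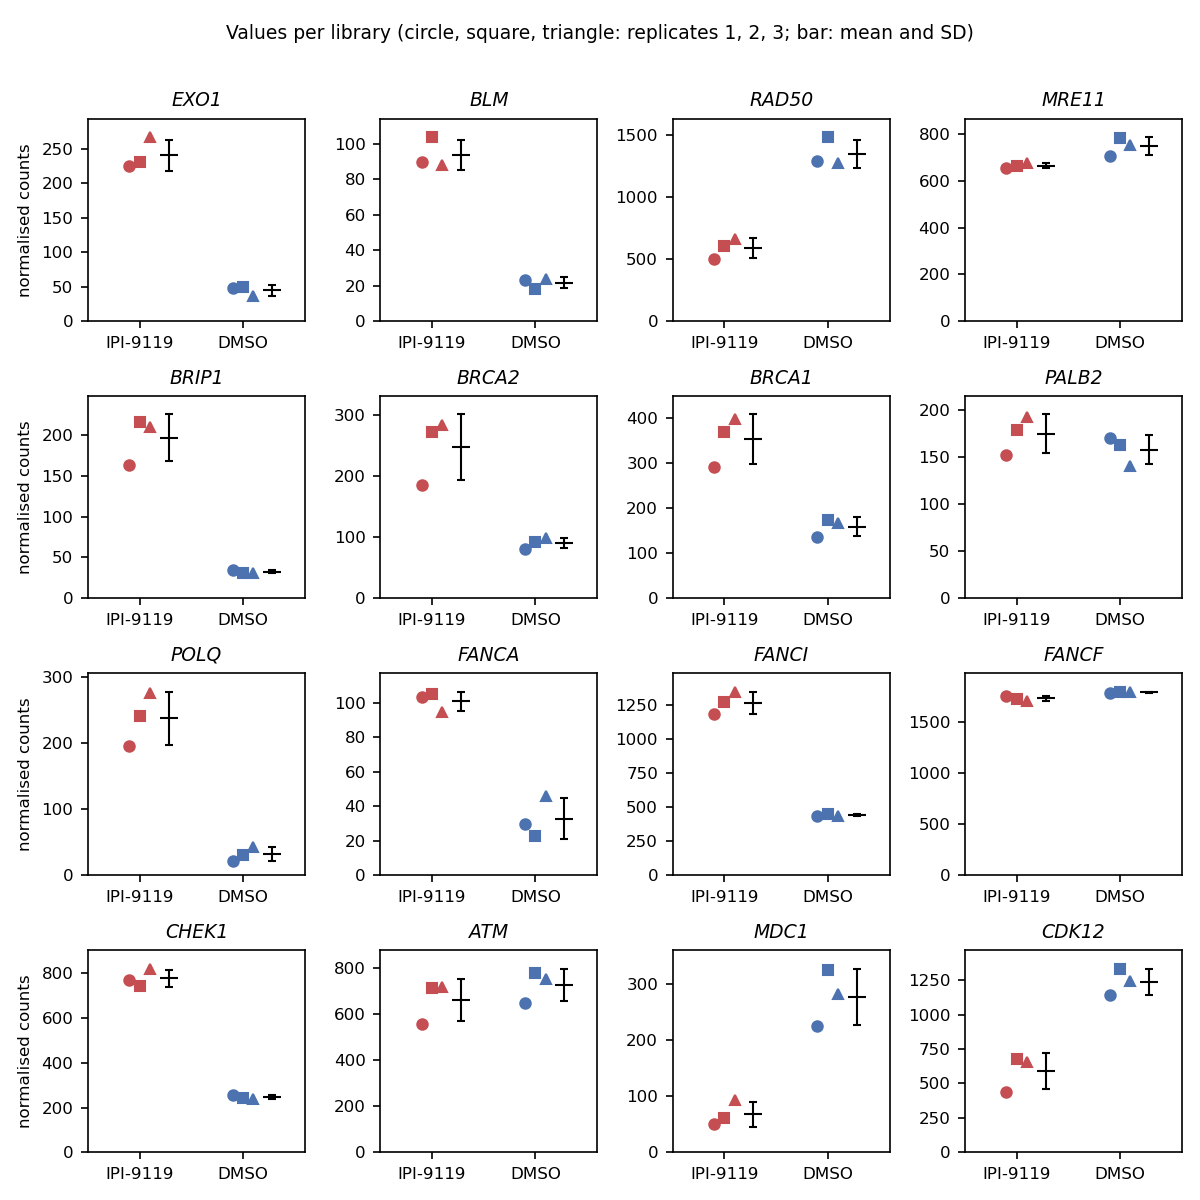
Normalised counts per library for 16 of the 41 genes, IPI-9119 left and DMSO right in each panel, on linear axes from 0. Circles, squares and triangles are replicates 1, 2 and 3, and the bar gives the mean and SD of 3 libraries. The groups are apart in EXO1, BLM, BRIP1, POLQ, FANCI and CHEK1, overlap in PALB2 and ATM, and run the other way in RAD50, MDC1 and CDK12.

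Among 8 genes of the Fanconi core complex and its anchor, 5 rose and 3 did not pass. FANCB (ENSG00000181544, chrX:14835961-14873069, minus strand), a scaffold subunit encoded on the X chromosome, had 46.4, 49.1 and 78.1 normalised counts with IPI-9119 and 15.2, 17.9 and 14.7 with DMSO (log2 fold change 1.76, SE 0.267, adjusted p = 5.2e-05). IPI-9119 replicate 3 was the highest, and all 3 stood above the DMSO libraries. FANCA (ENSG00000187741, chr16:89737549-89816657, minus strand), which binds FANCG, had 103, 105 and 94.6 with IPI-9119 and 29.5, 22.6 and 45.9 with DMSO (log2 fold change 1.65, SE 0.236, adjusted p = 3.0e-05). FANCG (ENSG00000221829, chr9:35073835-35080016, minus strand), its partner, had 662, 604 and 588 with IPI-9119, against DMSO values of 233, 238 and 208 (log2 fold change 1.45, SE 0.0917, adjusted p = 9.1e-09). ZNF276, on the opposite strand, shares 23.6% of the exonic bases of FANCA.

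FANCC, a partner of FANCF, and FANCM, the translocase that anchors the complex on DNA, both rose. FANCC had 452, 495 and 488 normalised counts with IPI-9119 and 287, 291 and 298 with DMSO (log2 fold change 0.71, and 1.196 after the length and GC correction). FANCM had 258, 277 and 266 with IPI-9119 and 164, 165 and 161 with DMSO (0.71). FANCL, the catalytic ubiquitin ligase, did not pass (148 to 170.2 with IPI-9119, 130.5 to 152 with DMSO, 0.17, SE 0.127). Neither did FANCE, the link to FANCD2 (162 to 176 with IPI-9119, 155 to 163 with DMSO, 0.083, SE 0.115). FANCF, an adaptor of the core, had 1754, 1727 and 1707 with IPI-9119 and 1786, 1795 and 1786 with DMSO, tight groups that did not overlap yet differed by -0.049 (SE 0.0499). It passed as lower after the correction (-0.27, limma, adjusted p 1.6e-04).

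Both targets of the core complex rose. FANCI (ENSG00000140525, chr15:89243949-89317261, plus strand) had 1181, 1269.6 and 1344 normalised counts with IPI-9119 and 436, 452 and 435 with DMSO, 2.86-fold (log2 fold change 1.52, SE 0.0704, adjusted p = 3.8e-10). FANCD2 (ENSG00000144554, chr3:10026414-10101930, plus strand), its partner in the clamp around DNA, had 461, 494 and 552 with IPI-9119, against DMSO values of 229, 234 and 246, 2.12-fold (log2 fold change 1.08, SE 0.0949, adjusted p = 2.5e-07). Groups were apart in both, and per kb of exon FANCI stood above FANCD2 in every library. FANCD2 has an annotated pseudogene, FANCD2P2, as MRE11, RBBP8 and RAD51AP1 have theirs.

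Among 7 checkpoint genes CHEK1, CHEK2 and CLSPN rose at least 2-fold, ATR and TOPBP1 rose by 0.26 and 0.33 on the log2 scale, and ATM and ATRIP did not pass. CHEK1, the effector of ATR (ENSG00000149554, chr11:125625136-125676255, plus strand), had 771, 745 and 820.5 normalised counts with IPI-9119 and 257, 244 and 238 with DMSO (log2 fold change 1.66, SE 0.0816, adjusted p = 7.0e-10). CHEK2, the effector of ATM (ENSG00000183765, chr22:28687743-28742422, minus strand), had 668, 624 and 606 with IPI-9119, against DMSO values of 238, 259 and 271 (log2 fold change 1.303, SE 0.0876, adjusted p = 1.7e-08). Part of CHEK2 is copied in 4 annotated pseudogenes, so some of its reads may have been lost or shared. CLSPN, whose product claspin brings CHEK1 to ATR (ENSG00000092853, chr1:35720218-35769967, minus strand), had 36.9, 50.2 and 80.3 with IPI-9119 and 25.03, 30.2 and 21.1 with DMSO (log2 fold change 1.04, SE 0.284, adjusted p = 0.00537). Its IPI-9119 libraries were spread more than 2-fold, on 35 to 73 reads, and its DMSO values rest on 23 to 32. Over the alternatives the CLSPN log2 fold change ran from 0.75 to 1.30, and was 0.91 after the length and GC correction. Its call was kept in each one run, but a rise of at least 2-fold was not.

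ATR, the kinase that answers stalled forks, had 1133, 1353 and 1319 normalised counts with IPI-9119 and 984, 1069 and 1124 with DMSO, a small rise without overlap (log2 fold change 0.26, SE 0.0761, adjusted p = 0.00893 by limma). The ATR call was lost without IPI-9119 replicate 2 (adjusted p 0.0532) and without trend and robust moderation (0.0584). TOPBP1, the activator of ATR, had 957, 1019.8 and 1089 with IPI-9119, against DMSO values of 775, 786 and 875 (0.33, SE 0.0724). ATM, the kinase that answers double-strand breaks, had 556, 711 and 715 with IPI-9119 and 648, 779 and 752 with DMSO and did not pass (-0.14, SE 0.102). ATRIP, the partner that brings ATR to single-stranded DNA, rests on 10 to 27 reads per library (10.998 to 20.03 with IPI-9119, 14.7 to 25.5 with DMSO, -0.27, SE 0.355), the least precise value of the set. ATRIP shares 27.9% of its exonic bases with TREX1 on the same strand.

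Both mediators that gather repair factors on chromatin around a break fell. MDC1, which binds phosphorylated histone H2AX (ENSG00000137337, chr6:30699807-30717889, minus strand), had 50.6, 61.1 and 93.5 normalised counts with IPI-9119, against 225, 325 and 283 with DMSO, a 4.103-fold fall and the largest among the members (log2 fold change -2.04, SE 0.208, adjusted p = 2.4e-06). TP53BP1, which shields ends from resection and so opposes BRCA1 (ENSG00000067369, chr15:43403061-43510728, minus strand), had 194, 287 and 307 with IPI-9119 and 414, 460.5 and 393 with DMSO (log2 fold change -0.71, SE 0.149, adjusted p = 0.00119). IPI-9119 replicate 1 was the lowest library in both, and no library of one group reached the other. The TP53BP1 value was -0.45 after the length and GC correction, and 28.7% of its exonic bases overlap TUBGCP4 on the opposite strand.

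CDK12, a kinase of RNA polymerase II known in other cells to sustain transcription of long DNA repair genes (ENSG00000167258, chr17:39461511-39564907, plus strand), had 439.6, 678 and 657 normalised counts with IPI-9119 and 1141, 1329 and 1246 with DMSO. That was a 2.13-fold fall (log2 fold change -1.09, SE 0.153, adjusted p = 2.3e-04), and IPI-9119 replicate 1 was again the lowest. Of 4 partners and relatives, 3 fell and 1 rose. CCNK, its cyclin partner, fell to 68.5, 112 and 132 with IPI-9119, against 291, 326 and 286 with DMSO (log2 fold change -1.57, SE 0.199, adjusted p = 2.3e-05). CDK13, its closest relative, fell too (log2 fold change -1.28, and -0.78 after the length and GC correction), as did CDK9 (-0.302), while CCNT1, the cyclin of CDK9, rose (0.19, limma, adjusted p = 0.0205), a call lost after the correction (0.11).

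Levels of different genes were compared per kilobase of merged exonic length. FANCF stood highest in both groups, at 586 normalised counts per kb with IPI-9119 and 606 with DMSO. With IPI-9119 it was followed by BARD1 (356) and NBN (316), and with DMSO by NBN (299) and BARD1 (145). At the low end of the DMSO libraries POLQ (3.43 ± 1.11), ATRIP (3.398 ± 1.12), FANCA (3.36 ± 1.23) and BLM (3.25 ± 0.4895) did not differ beyond their spread (SD, n = 3). With IPI-9119 ATRIP was lowest (2.77). MDC1 (8.48 ± 2.77), CLSPN (10.3 ± 4.11) and FANCA (10.4 ± 0.56) came next and did not differ beyond their spread. RAD50 ranked 17 of 41 with IPI-9119 and 4 with DMSO, and RAD51AP1 ranked 4 and 17. The RAD50 ranks depend on how shared exons were counted. Summed over all 41 genes, libraries held 20295 to 22068 normalised counts with IPI-9119 and 16083 to 16977 with DMSO, a ratio of means of 1.29.

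Ratios of partner genes within a library were set against each other for 12 pairs, by exact two-sided permutation of the 6 libraries. The smallest p this design allows is 0.1, so no pair can pass. In 7 pairs IPI-9119 and DMSO libraries were fully apart, each at that smallest p (0.171 adjusted over the 12 pairs). The RAD50 to MRE11 ratio, per kb, was 0.606, 0.713 and 0.768 with IPI-9119 and 1.43, 1.48 and 1.33 with DMSO (difference -1.03 on the log2 scale). NBN to MRE11 was 3.57, 3.77 and 3.62 with IPI-9119, against DMSO values of 3.29, 2.96 and 2.99 (0.25). As counted, RAD50 thus lay below MRE11 in all 3 IPI-9119 libraries and above it in all 3 DMSO libraries. RAD50 shares 79.7% of its exonic bases with AC116366.3, so its level against MRE11 depends on how shared exons were counted. BRCA2 to PALB2 was 0.469, 0.588 and 0.566 with IPI-9119 and 0.185, 0.218 and 0.271 with DMSO (1.28).

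FANCD2 to FANCI differed by -0.43 (ratios 0.362, 0.361 and 0.381 with IPI-9119, 0.487, 0.481 and 0.525 with DMSO) and CHEK1 to CHEK2 by 0.35. RAD54L to RAD54B differed by 0.98 and FANCM to FANCA by -0.95. After the length and GC correction FANCM to FANCA was at -1.61 and NBN to MRE11 at 0.16. The 5 pairs with overlapping libraries were BRCA1 to BARD1 (-0.15, exact p = 0.5), XRCC2 to RAD51D (0.22, 0.5), ATR to ATRIP (0.53, 0.3), CLSPN to CHEK1 (-0.61, 0.2) and RAD51B to RAD51C (-0.22, 0.2). BRCA1 stood at 0.0873, 0.1197 and 0.119 of the BARD1 level with IPI-9119 and 0.101, 0.132 and 0.126 with DMSO, its groups interleaved. Leaving out 1 library moved all 5 by over 1.5 times, to between 0.29 and 0.82 for ATR to ATRIP, -0.87 and -0.36 for CLSPN to CHEK1, -0.29 and -0.11 for RAD51B to RAD51C, 0.012 and 0.47 for XRCC2 to RAD51D and -0.26 and 0.0023 for BRCA1 to BARD1. The values nearest 0 came without DMSO replicate 2, IPI-9119 replicate 1, IPI-9119 replicate 1, DMSO replicate 3 and IPI-9119 replicate 1. After the correction ATR to ATRIP was at 0.29 and RAD51B to RAD51C at -0.12.

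**Figure D3:**
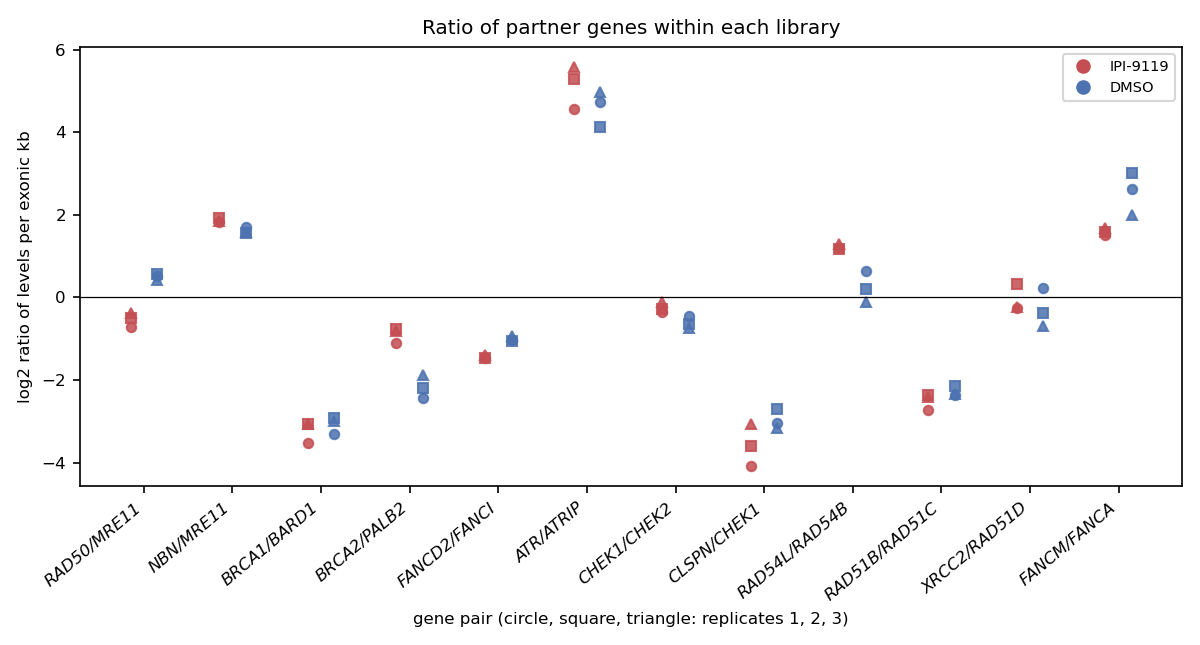
Log2 ratio of the levels per exonic kb of 2 partner genes within each library, for 12 pairs. IPI-9119 libraries are red and left of the blue DMSO libraries, and circles, squares and triangles are replicates 1, 2 and 3. RAD50/MRE11 crosses 0 between the groups, though the RAD50 level depends on how shared exons were counted, and BRCA1/BARD1 overlaps.

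Exonic length moved with the fold change across all genes, and members are long, with a median of 6674 nt beside 4616 nt over all genes tested. Among the 13 shortest members (2412 to 5313 nt) 8 rose and 0 fell, with a median log2 fold change of 1.05. The 14 of middle length (5411 to 7991 nt) gave 10 higher and 1 lower (0.56), and the 14 longest (8064 to 23972 nt) 9 higher and 4 lower (0.58). Of all tested genes in the same length classes, 34.3%, 30.4% and 23.4% were higher and 24.5%, 37.0% and 46.5% lower. Of the 5 members that fell, RAD50, MDC1, TP53BP1 and CDK12 are among the 14 longest and MRE11 among those of middle length. BRCA2, POLQ, FANCA and BRCA1, at 12273, 9400, 9736 and 9187 nt, are also among the 14 longest and rose. Across the members log2 length and log2 fold change had Pearson’s r of -0.23 (n = 41 genes of the same 6 libraries), beside -0.14 over 14392 genes, both descriptions only. For log2 gene span, introns included, the members’ r was 0.06, and for the log2 DMSO mean it was -0.59. The DMSO values enter both that mean and the fold change, and these too are descriptions only.

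**Figure D4:**
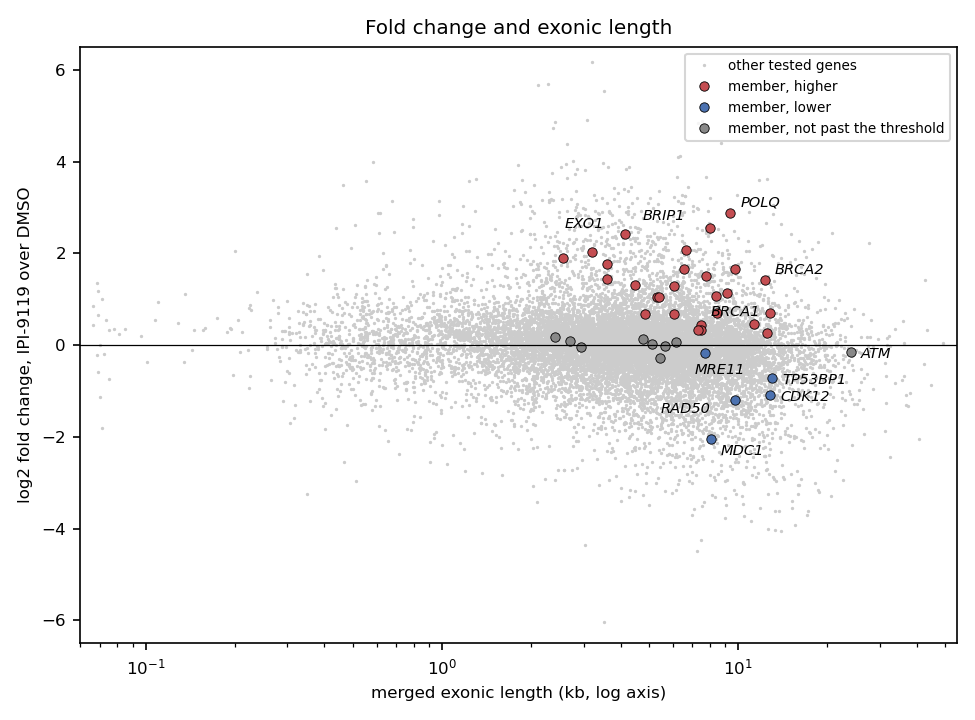
Log2 fold change (IPI-9119 over DMSO, linear axis) against merged exonic length in kb (log axis). Large points are the 41 members, coloured by their call, and small grey points are the other tested genes. Members that rose lie between 2558 and 12809 nt, and those that fell between 7689 and 12991 nt.

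After a correction for length and GC content within each library, all 32 called members kept their sign. The counts were then 26 higher and 8 lower, beside 30.7% and 34.1% of all genes, and the median was 0.72. In 6 called members (MRE11, RAD51D, XRCC2, XRCC3, FANCC and TP53BP1) the value moved by over 1.5 times. IPI-9119 replicate 1 was the lowest of its group in 27 of 41 members and in 12 of the 14 longest, against 41.3% of all genes. DMSO replicate 1 was the lowest of its group in 18 members and 10 of the 14 longest, against 35.2%. Both shares are over genes of every length. None was taken over long genes alone, so whether the pattern is particular to the long members was not tested. Without IPI-9119 replicate 1 the counts were 26 higher and 4 lower, and without DMSO replicate 1 they were 25 and 5. The part of length or of these libraries in the differences was not tested beyond these values.

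Other genes of these pathways were counted from lists that are not members, and are read against the 31.3% of all tested genes called higher and 31.4% called lower. After the length and GC correction those shares were 30.7% and 34.1%. Further genes of homologous recombination gave 17 that rose, 8 that fell and 10 that did not pass, among 35 tested (median log2 fold change 0.22), and 17 higher and 10 lower, median 0.15 once corrected. Among them HROB, which recruits a helicase, rose to 17.9, 18.5 and 25.3 normalised counts with IPI-9119, against 3.58, 5.66 and 4.59 with DMSO (log2 fold change 1.94), on few reads. SLX4, the nuclease scaffold, fell to 8.43, 21.8 and 18.7 with IPI-9119, against 50.1, 128 and 78.99 with DMSO (-2.32). Its IPI-9119 values rest on 8 to 20 reads per library, and its log2 fold change was -1.71 after the correction. Further Fanconi genes gave 7 that rose, 2 that fell and 8 that did not pass, among 17 tested (median 0.13), and 8 higher and 4 lower, median 0.31 once corrected. UBE2T, the ubiquitin-conjugating enzyme that works with FANCL, rose to 1251, 1155 and 1064 with IPI-9119, against 355, 336 and 395 with DMSO (1.67), and the translesion polymerase gene REV3L fell to 63.3, 123 and 87.98 with IPI-9119, against 150.2, 225 and 161 with DMSO (-0.99).

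Further checkpoint and break signalling genes gave 13 that rose, 2 that fell and 8 that did not pass, among 23 tested (median 0.27). CDC25C, a phosphatase that starts mitosis, rose to 307, 216 and 229 normalised counts with IPI-9119, against 40.2, 34.9 and 45.9 with DMSO (log2 fold change 2.596). After the length and GC correction this list gave 9 higher and 8 lower, median 0.15. Genes of end joining and single-strand break repair, the routes that need no sister chromatid, gave 4 that rose, 5 that fell and 7 that did not pass, among 16 tested, with a median of -0.021. These shares are near those of all genes. Once corrected they gave 2 higher and 5 lower, median -0.14. PARP2, a sensor of strand breaks, rose (0.35) and the ligase gene LIG3 fell to 568, 606 and 635 with IPI-9119, against 965, 1196 and 1133 with DMSO (-0.86). After the correction PARP2 was at 0.15 and not past the threshold (limma, adjusted p 0.143), and LIG3 was at -0.502 and still lower. Mismatch repair genes gave 4 that rose, 3 that fell and 2 that did not pass, among 9 tested (median 0.16), with the sliding clamp gene PCNA higher (1.42) and PMS2 lower (-0.61). Once corrected the mismatch repair genes gave 4 higher and 4 lower, median -0.039, so that their median turned sign. Differences between these lists and the members were not tested.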

How the data were processed

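The authors deposited a normalised signal, in which each library’s gene counts stand over 1 size factor, as read from the values. The tools Trimmomatic 0.36, STAR 2.5.2b, Subread 1.5.2 with featureCounts, and DESeq2, and the build GRCh38, are listed with neither role nor order, per the submitters’ processing notes. Neither the strand setting of the counting nor its gene annotation is given in the sources used here. Low values were whole multiples of the value of 1 read, which gave back the reads: 100% of values were whole within 0.01 read. No 2 libraries were alike within counting error (chi-square over its degrees of freedom, within groups, 2.29 to 9.59).

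Genes with a mean of at least 10 were tested with limma 3.58.1 (R 4.3.3; trend and robust moderation) on log2(value + 1), all IPI-9119 against all DMSO libraries, two-sided. Fold changes on that scale understate those of low genes. The recovered reads were also tested with edgeR 4.0.16 (9072 genes called) and DESeq2 1.42.0 (8460), beside 9061 in limma, of which 8975 had the same direction and call in edgeR. Further alternatives were no filter, a stricter minimum mean of 50, pseudocounts of 0.5 and 8, and TMM and quantile scaling. Others were no trend and no robust moderation, a replicate block, leaving out each library, and a correction for exonic length and GC percent. The correction subtracts, per library, a fit of the log2 deviation on splines of length and GC percent (4 degrees of freedom each) and their interaction. GC percent was that of a gene’s longest transcript. Of tested genes 99.6% had both a length and a GC percent. Positions and merged exonic lengths, which can exceed any single transcript, came from GENCODE 29. The fits were tested on simulated counts. A trend on exonic length was also added to these. The fit without the correction then called many genes that had only that trend, and the corrected fit few. As the correction uses the same length, this outcome was set in advance and does not bear on the data.

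The members, lists and tests were chosen with earlier results of these data known. In each step the 3 genes with the largest change, and called genes that go against their step, are given with full statistics, and from each other list the largest rise and fall among called genes, of which 1 is not reported here.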

Additional observations from a re-analysis of the deposited data

How the results depend on the processing

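The rise of most members did not depend on 1 setting: over 19 alternatives 24 to 27 members were called higher and 4 to 9 lower, and 29 of the 41 kept direction and call in each one run, among them 27 of the 32 called. The others were MRE11, XRCC3, XRCC2, RAD51D and ATR among called genes, and NBN, RBBP8, WRN, PALB2, FANCL, FANCF and ATRIP among those not called. The length and GC correction moved the count of lower members to 8, and with a replicate block to 9. Under both, log2 fold changes turned sign for NBN (-0.12), RBBP8 (-0.19), PALB2 (-0.062), FANCL (-0.083) and ATRIP (0.0046); under the correction the BRCA1 to BARD1 difference was 0.046 and that of XRCC2 to RAD51D -0.28. WRN was 0.073 under quantile scaling. Leaving out 1 library gave 24 to 27 members higher, 4 or 5 lower and 8158 to 8887 genes called. WRN then ran from -0.070 to 0.051 and BRCA1 to BARD1 from -0.26 to 0.0023. The cause of these turns was not tested. A mean of at least 50 left out CLSPN, FANCB and ATRIP. Over all genes the number called ran from 8032 to 9772, against 9061 in the reported test.

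Same-numbered libraries deviated from their group means with correlations of 0.141, 0.0634 and 0.00443, so not every pair was over 0.1. IPI-9119 replicates 1 and 2 correlated best with the DMSO library of their own number, and IPI-9119 replicate 3 with DMSO replicate 2. The labels tie the numbers to no shared culture or day, and the libraries were not treated as paired. With the replicate block 27 members were called higher and 5 lower, and 9596 genes in all.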
